A study of Mus musculus with 8 samples.

Results

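Macrophages are the most common immune cells of the testis, where they lie between the Leydig cells and around the seminiferous tubules. The 10 genes described here, C1qa, C1qb, C1qc, Tyrobp, Fcer1g, Fcgr3, Csf1r, Cx3cr1, Mrc1 and Cd68, are genes that tissue macrophages are known to express. They were taken by symbol from a table of 22744 genes, each symbol matched 1 row, and all 10 were among the 16634 genes that passed the filter on low values (a mean of at least 0 log2 CPM over the 6 libraries, CPM being reads scaled to the total of the library). The set was chosen by symbol but selected on measured values too: its log2 CPM in these 6 libraries, the lower means in null testes and the joint variation between libraries were already known. Differences of the 10 genes are therefore descriptions and not tests.

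RNA was sequenced from testes of mice on a C57BL/6 background at postnatal day 8 (P8). There were 3 libraries from Dmrt6 null animals, which lack a DNA-binding protein of male germ cells listed in the table as Dmrtb1, and 3 from wild-type animals. Each group is described as 3 biological replicates, and the labels do not say how the null allele was made or whether animals were pooled. A separate peak list came from 1 DMRT6 chromatin immunoprecipitation (ChIP) library and 1 input library of adult wild-type testis, with the background listed as C57BL/6, Mixed.

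Testicular macrophages depend on the CSF1 receptor for survival, and in the newborn testis they descend largely from embryonic precursors. Fc receptors and several lectin-type receptors signal through small adaptor chains that carry an immunoreceptor tyrosine-based activation motif (ITAM), and complement C1q binds immune complexes and dying cells to start the classical pathway. In bulk RNA fewer cells of a type and less RNA per cell cannot be told apart, so every value below is a level per testis library and not a cell count.

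Promoter sequence is shown for the 3 genes that followed the rest of the set most closely between libraries, C1qb, C1qc and Fcgr3, and for Mrc1, which followed it least. Each run is the 250 bases before the RefSeq start in build GRCm38.p6, 5′ to 3′ on the gene's strand, at chr4:136886201-136886450 for C1qb, chr4:136892915-136893164 for C1qc, chr1:171059404-171059653 for Fcgr3 (the first of 2 listed starts) and chr2:14229164-14229413 for Mrc1. Capitals mark GAGGAA or its reverse complement TTCCTC, the core that the myeloid factor PU.1 recognises.
C1qb promoter: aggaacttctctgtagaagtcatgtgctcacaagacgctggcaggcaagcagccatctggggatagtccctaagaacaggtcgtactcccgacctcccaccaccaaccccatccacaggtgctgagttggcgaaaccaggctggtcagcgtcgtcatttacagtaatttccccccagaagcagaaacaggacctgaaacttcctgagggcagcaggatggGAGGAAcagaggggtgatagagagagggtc
C1qc promoter: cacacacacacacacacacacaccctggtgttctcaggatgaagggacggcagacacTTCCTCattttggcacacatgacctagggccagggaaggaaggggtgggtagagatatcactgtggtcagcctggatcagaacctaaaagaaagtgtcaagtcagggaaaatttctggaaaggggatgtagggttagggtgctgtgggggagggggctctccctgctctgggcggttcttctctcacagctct
Fcgr3 promoter: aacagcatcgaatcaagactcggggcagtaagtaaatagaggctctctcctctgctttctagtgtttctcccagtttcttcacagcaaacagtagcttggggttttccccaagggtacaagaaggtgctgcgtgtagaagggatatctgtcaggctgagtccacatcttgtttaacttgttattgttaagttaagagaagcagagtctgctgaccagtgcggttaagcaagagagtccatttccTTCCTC
Mrc1 promoter: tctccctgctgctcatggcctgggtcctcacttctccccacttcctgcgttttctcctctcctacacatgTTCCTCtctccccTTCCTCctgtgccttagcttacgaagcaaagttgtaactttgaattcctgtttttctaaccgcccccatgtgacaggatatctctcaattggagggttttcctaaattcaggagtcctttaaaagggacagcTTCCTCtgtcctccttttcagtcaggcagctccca
Counted with -1 as the last base before the start, the core began at -30 in C1qb, -193 in C1qc and -6 in Fcgr3, and at -180, -167 and -35 in Mrc1. Promoters were listed for 7 of the 10 genes and 5 of those 7 held the core on either strand, the fifth being Cd68, whereas Fcer1g and Cx3cr1 did not. The same 250-base window held it in 23.1% of 27018 promoters. The AP-1 core TGACTCA, or TGAGTCA on the other strand, was in 1 of the 7, that of Cd68, and in 4.43% of all promoters, and TATAAA, or TTTATA on the other strand, was in 0 of the 7 and in 13% of all. The 2 kinds of core in the Cd68 promoter did not overlap, and a match is a description of the letters only.

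The 6 libraries held 23768316 to 29046494 reads in the table. Dmrtb1 had 14 to 26 reads in null libraries and 194 to 510 in wild-type libraries, in the direction of the labels, with an adjusted p of 0.0516 in limma. Null replicate 3 stood apart on the main axis of variation over all tested genes, at 54.3 against -20.2 to 1.68 in the other 5 libraries, and wild-type replicate 1 was the highest library on 9 of the 10 macrophage genes. Differences of the 10 genes and the list medians printed below are therefore also given with either library left out, where that moved them by over 1.5 times. For other named genes such values are given in part only, and some not given also changed direction. Medians of some lists are not printed, and some of these moved as much. That of the germ cell list was 0.20 with all libraries and 0.11 without null replicate 3. Markers of testis were present, with germ cell and Sertoli lists summing to 1180 to 1260 CPM in null and 1090 to 1240 CPM in wild-type libraries for germ cells and 553 to 1060 CPM in null and 661 to 766 CPM in wild-type libraries for Sertoli cells.

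C1q is assembled from 3 chains encoded by neighbouring genes on chromosome 4 (mm9, minus strand), C1qb at 136436044 to 136442102 (ENSMUSG00000036905), C1qc at 136445719 to 136448980 (ENSMUSG00000036896) and C1qa at 136451832 to 136454718 (ENSMUSG00000036887). They lie 29.1 Mb from Dmrtb1 on the same chromosome. C1qb, the B chain gene, stood at 3.91, 4.24 and 3.69 log2 CPM in null replicates 1, 2 and 3 and at 4.83, 4.06 and 4.51 in wild-type replicates 1, 2 and 3. Wild-type replicate 2 lay below null replicate 2, so the genotypes overlapped. Its mean was 3.95 ± 0.27 in null and 4.47 ± 0.39 in wild type (SD, n = 3 each), a difference of -0.52 on the log2 scale (limma SE 0.23), which is a null level of 0.696 times wild type. C1qc, the C chain gene, stood at 3.87, 4.30 and 3.67 log2 CPM in null and 4.80, 3.98 and 4.33 in wild-type replicates, a difference of -0.43 (SE 0.24). The order of the 6 libraries was the same for C1qb and C1qc. C1qa, the A chain gene, stood at 3.70, 4.08 and 3.71 log2 CPM in null and 4.23, 3.57 and 4.11 in wild-type replicates. Its lowest library was wild-type replicate 2, and its difference of -0.14 (SE 0.21) was the smallest of the 3 chains. Leaving out wild-type replicate 1 brought the differences to -0.34 for C1qb, -0.21 for C1qc and -0.01 for C1qa. Leaving out null replicate 3 gave -0.40, -0.29 and -0.08 for the same genes.

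**Figure D1:**
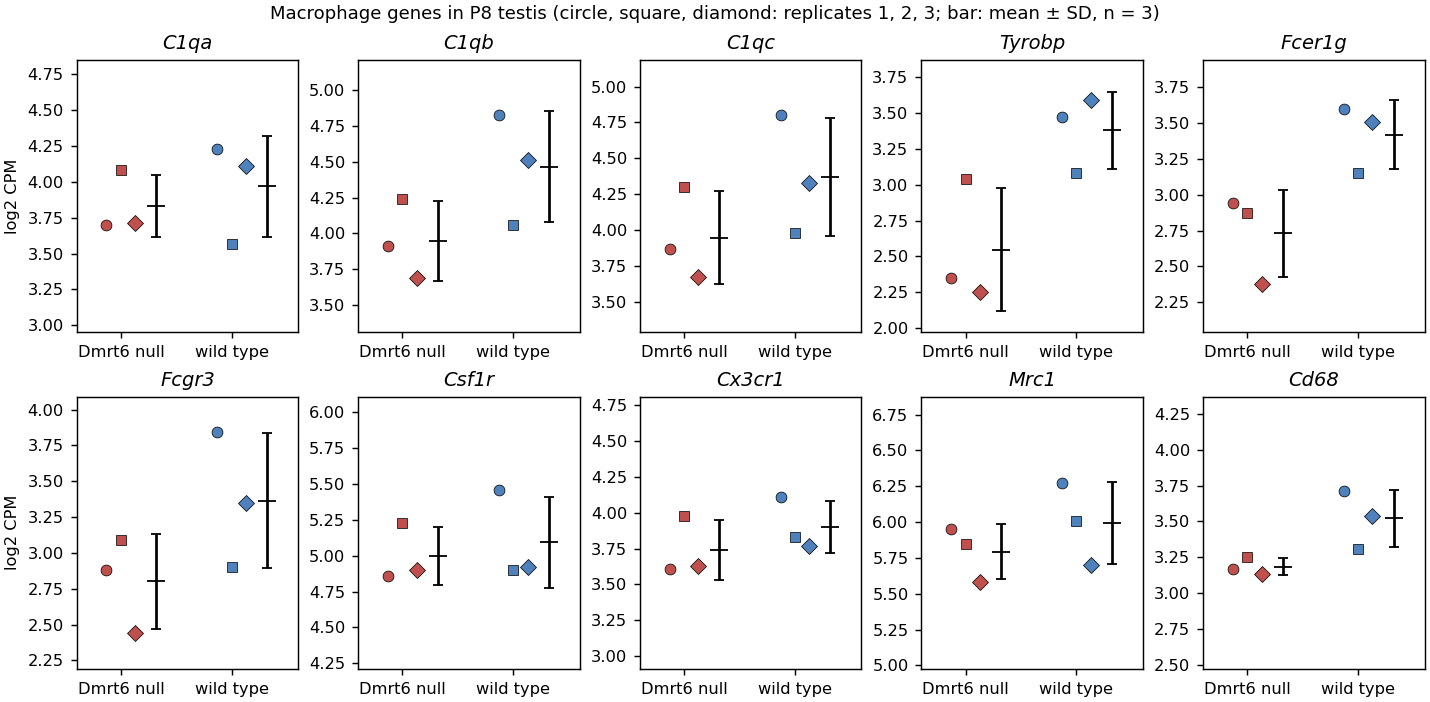
Deposited log2 CPM of each of the 10 macrophage genes in the 3 Dmrt6 null (left, red) and 3 wild-type (right, blue) libraries, with 1 marker shape per replicate number and the mean ± SD (n = 3) at the side; every panel spans the same log2 range. The genotypes do not overlap for Tyrobp, Fcer1g and Cd68, and wild-type replicate 1 (circle) is the highest library in every panel but that of Tyrobp.

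The pair of ITAM adaptor genes had the largest differences of the set. Tyrobp (ENSMUSG00000030579, chromosome 7, 31198807 to 31202596, plus strand) encodes DAP12, the adaptor of TREM2 and related receptors. It had 134, 227 and 122 reads in null and 263, 247 and 330 reads in wild-type replicates, or 2.35, 3.04 and 2.25 log2 CPM in null and 3.47, 3.08 and 3.59 in wild type. All 3 null libraries lay below all 3 wild-type libraries, with null replicate 2 just under wild-type replicate 2. The mean was 2.55 ± 0.43 in null and 3.38 ± 0.27 in wild type (SD, n = 3 each), a difference of -0.83 (SE 0.25) and a null level of 0.562 times wild type. Fcer1g (ENSMUSG00000058715, chromosome 1, 173159703 to 173164496, minus strand) encodes the common gamma chain through which activating Fc receptors signal. It stood at 2.94, 2.87 and 2.38 log2 CPM in null and 3.60, 3.15 and 3.51 in wild-type replicates, again without overlap, and differed by -0.69 (SE 0.21). The 122 reads of Tyrobp in null replicate 3 were the fewest of the set, and counting alone gives an SD of 0.13 on the log2 scale there.

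Fcgr3 encodes an activating low-affinity receptor for IgG that signals through the FCER1G chain (ENSMUSG00000059498, chromosome 1, 172981300 to 172995066, minus strand). It stood at 2.88, 3.09 and 2.44 log2 CPM in null and 3.84, 2.90 and 3.35 in wild-type replicates. Null replicate 2 lay above wild-type replicate 2, and the difference was -0.56 (SE 0.28), or -0.32 with wild-type replicate 1 left out and -0.38 with null replicate 3 left out. Fcgr3 shares sequence with the other low-affinity receptor genes, so its value is uncertain where the authors' counting, which no source here describes, split such reads.

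The other 3 receptor genes had smaller differences, with overlapping genotypes in each. Csf1r, the receptor for CSF1 and IL-34 (ENSMUSG00000024621, chromosome 18, plus strand), stood at 4.86, 5.23 and 4.90 log2 CPM in null and 5.46, 4.90 and 4.92 in wild-type replicates, a difference of -0.10 (SE 0.18). Only wild-type replicate 1 stood clear of the null libraries, and without it the difference was 0.08, while leaving out null replicate 3 gave -0.05. The span of Csf1r overlaps that of Hmgxb3 in the table, and without stated use of strand their shared reads cannot be assigned. Cx3cr1, the fractalkine receptor (ENSMUSG00000052336, chromosome 9, 119957811 to 119977400, minus strand), stood at 3.61, 3.98 and 3.63 log2 CPM in null and 4.11, 3.83 and 3.77 in wild-type replicates and differed by -0.17 (SE 0.17), or -0.06 with wild-type replicate 1 left out and -0.11 with null replicate 3 left out. Mrc1, the mannose receptor CD206 that is also made by some endothelial cells (ENSMUSG00000026712, chromosome 2, 14151041 to 14253684, plus strand), stood at 5.95, 5.85 and 5.58 log2 CPM in null and 6.27, 6.01 and 5.70 in wild-type replicates and differed by -0.20 (SE 0.17), or -0.06 and -0.10 with the same libraries left out in turn.

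Cd68 encodes a lysosomal membrane glycoprotein of phagocytes (ENSMUSG00000018774, chromosome 11, 69477715 to 69479655, minus strand). It was the tightest of the set within null testes, at 3.17, 3.25 and 3.13 log2 CPM, against 3.71, 3.31 and 3.54 in wild-type replicates. The genotypes did not overlap, with null replicate 2 just under wild-type replicate 2, and the difference was -0.33 (SE 0.16). Counting alone gives Cd68 an SD of 0.10 on the log2 scale at its fewest reads, 226. Its SD of 0.06 in null was smaller than that.

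All 10 genes had a lower mean in null testes, and 48.3% of all tested genes did. Their median difference was -0.38, from -0.83 for Tyrobp to -0.10 for Csf1r, beside a median of 0.01 over all tested genes. In limma, with Benjamini-Hochberg adjustment over 16634 genes and a threshold of 0.05, 0 of the 10 passed, where 0.00601% of tested genes did. At an unadjusted p below 0.05 there were 3, Tyrobp, Fcer1g and C1qb, beside 1.85% of tested genes called so in this direction. limma's voom on recovered reads also called 0 after adjustment, where 0.00601% of tested genes passed, and Tyrobp and Fcer1g at an unadjusted p below 0.05, that is 2 of 10 beside 1.76%. For 3 of the 10 the null libraries lay wholly below the wild-type libraries, as they did for 6.02% of tested genes, and for 0 of the 10 wholly above, as they did for 5.06%. Because the set was picked with these values known, nothing is read from the counts. They also leaned on single libraries: the median was -0.23 once wild-type replicate 1 was left out and -0.30 once null replicate 3 was. With both left out it was -0.11, with 7 of 10 genes lower in null, and C1qa (0.05), Csf1r (0.13) and Mrc1 (0.04) were then higher in null.

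The 10 genes varied together between libraries, within each genotype as well as between genotypes. After each gene was centred on its own mean over the 6 libraries, the average of the 10 was -0.23, 0.04 and -0.41 in null replicates 1, 2 and 3 and 0.48, -0.07 and 0.18 in wild-type replicates 1, 2 and 3. Null replicate 2 thus lay above wild-type replicate 2. The range within a genotype was 0.45 in null and 0.55 in wild type, beside a difference of -0.40 between genotype means. Leaving out wild-type replicate 1 gave a wild-type range of 0.25 and a difference of -0.26, and leaving out null replicate 3 gave a null range of 0.27 and a difference of -0.29. Every one of the 10 was above its own mean in wild-type replicate 1, and every one was below it in null replicate 3.

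The order of the libraries recurred from gene to gene. Null replicate 2 was the highest null library for 8 of 10 genes, and for 37.4% of tested genes. Null replicate 3 was the lowest null library for 7 of 10, and for 42.8% of tested genes. Wild-type replicate 1 was the highest wild-type library for 9 of 10 and wild-type replicate 2 the lowest for 8 of 10, where 34.5% and 30.1% of tested genes had those libraries there. Fcer1g and Mrc1 were instead highest among null libraries in replicate 1, and Tyrobp was highest among wild-type libraries in replicate 3. The summed level of the 10 genes was 175, 201 and 150 CPM in null replicates 1, 2 and 3 and 265, 189 and 201 CPM in wild-type replicates 1, 2 and 3.

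**Figure D2:**
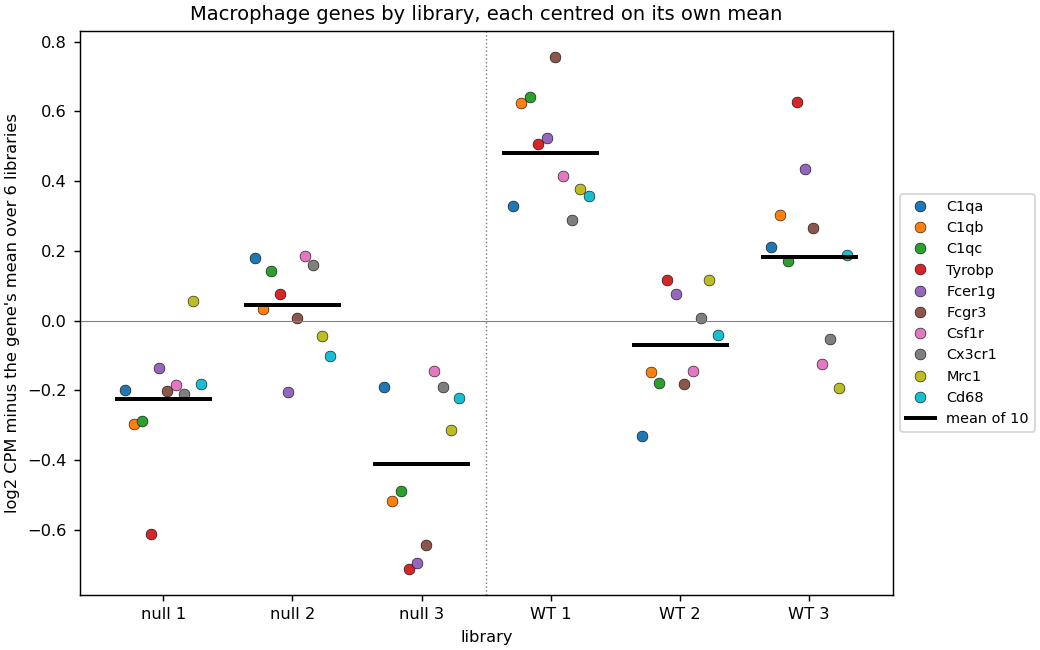
Log2 CPM of each of the 10 genes minus that gene's mean over all libraries, by library (null left of the dotted line, wild type right), with the average of the 10 as a black bar. Bars stand at -0.23, 0.04 and -0.41 for null and 0.48, -0.07 and 0.18 for wild-type replicates 1, 2 and 3, so null replicate 2 lies above wild-type replicate 2.

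The within-genotype SD of the 10 genes had a median of 0.28 on the log2 scale, from 0.15 for Cd68 to 0.41 for Fcgr3. The median was 0.20 over all tested genes and 0.19 over the 7524 tested genes whose mean level lay in the same range, 2.96 to 5.90 log2 CPM. Counting alone gives a median SD of 0.08 over the 10 genes, which had 122 to 1890 reads in a library.

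As a description over 6 libraries of 2 genotypes, with no test, each gene was set against the average of the other 9. Pearson's r was 0.99 for C1qb, 0.98 for C1qc and Fcgr3, 0.94 for Cd68, 0.86 for Fcer1g, 0.85 for Tyrobp, 0.83 for Cx3cr1, 0.79 for C1qa, 0.74 for Csf1r and 0.61 for Mrc1. Spearman's rho was 1.00 for C1qb, C1qc and Fcgr3 and 0.49 for Mrc1. With each genotype centred on its own mean, r was 1.00 for C1qc, 0.99 for C1qb, 0.97 for Fcgr3, 0.74 for Tyrobp and 0.46 for Mrc1. Without null replicate 3 and wild-type replicate 1, the farthest from the median, r was 0.98 for C1qb, 0.92 for C1qc, 0.91 for Tyrobp and Fcgr3, 0.84 for Cd68 and 0.72 for C1qa. It was 0.55 for Fcer1g, 0.47 for Cx3cr1, 0.30 for Csf1r and -0.86 for Mrc1, 4 genes whose likeness to the set rested in part or wholly on those libraries. All 45 pairs of the 10 genes had r above 0, with a median of 0.79 and a range of 0.26 to 0.99.

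The 10 genes also differed in balance within the same library. Relative to the average of the 10, Tyrobp was -1.37, -0.95 and -1.29 in null and -0.97, -0.80 and -0.54 in wild-type replicates on the log2 scale, a shift of -0.43 between genotype means. Fcer1g shifted by -0.30 the same way. Csf1r went the other way, at 1.13, 1.23 and 1.36 in null and 1.03, 1.02 and 0.79 in wild-type replicates, a shift of 0.30. Its own level was still lower on average in null, by -0.10. The balance averages 0 over the 10 genes in each library, so shifts below 0 are matched by shifts above 0 by construction. These genes were singled out after their values were seen, and their balance was not tested. Against Csf1r alone, Tyrobp was -2.50, -2.18 and -2.65 in null and -1.99, -1.82 and -1.34 in wild-type replicates. These are differences between genes within a library and not levels per length, so only their change from library to library is read.

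Among the C1q chains, the balance of C1qa against C1qb differed between genotypes more than that of C1qb against C1qc. C1qb minus C1qc was 0.04, -0.07 and 0.03 in null and 0.03, 0.08 and 0.18 in wild-type replicates on the log2 scale. C1qa minus C1qb was -0.20, -0.15 and 0.02 in null and -0.60, -0.49 and -0.40 in wild-type replicates, with no overlap between genotypes. This balance was singled out after its values were seen and was not tested.

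**Figure D3:**
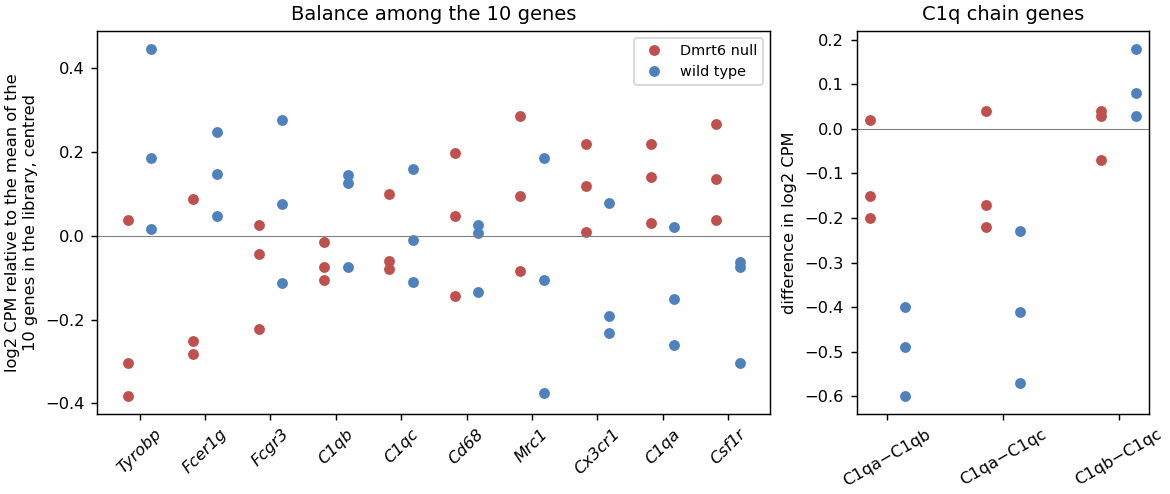
Left, log2 CPM of each gene relative to the average of the 10 in the same library, centred per gene, in Dmrt6 null (red) and wild-type (blue) libraries, ordered by the shift between genotypes from Tyrobp (-0.43) to Csf1r (0.30). Right, differences in log2 CPM between C1q chain genes in each library; C1qa minus C1qb is -0.20 to 0.02 in null and -0.60 to -0.40 in wild-type libraries.

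Other genes of macrophages were mostly lower on average in null, with smaller differences. Of 24 further macrophage identity genes 23 were in the table and 21 were tested, of which 17 had a lower mean in null and 4 a higher one. Their median difference was -0.18 (0.01 over all tested genes), -0.03 without wild-type replicate 1, and 0 passed in limma or voom over all genes, with 1 at an unadjusted p below 0.05 in each, in limma Ms4a7 (-0.59, SE 0.24). Genes named here only for such a p were picked after their values were seen. Adgre1, the F4/80 antigen gene listed as Emr1, stood at 3.75, 4.12 and 3.31 log2 CPM in null and 4.16, 3.63 and 3.84 in wild-type replicates, the same order of libraries within each genotype as C1qb. It differed by -0.15 (SE 0.23), the integrin gene Itgam by 0.11 (SE 0.31) and the haemoglobin scavenger receptor gene Cd163 by -0.15 (SE 0.22). Adgre1 differed by -0.00 without wild-type replicate 1 and by 0.06 without null replicate 3. With the same libraries left out in turn, Itgam differed by 0.39 and 0.13, and Cd163 by -0.21 and -0.11. Wild-type replicate 1 was the highest of the 6 libraries for 13 of the 21 genes, and for 14.8% of tested genes.

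Genes of the signalling partners of the ITAM adaptors lay on either side of 0. Of 11 tested genes 8 were lower and 3 higher in null, with a median of -0.15. It was -0.06 without wild-type replicate 1, and 0.06 with null replicate 3 left out too, when 5 of the 11 were lower. Syk, which encodes a kinase that docks on phosphorylated ITAMs, differed by -0.29 (SE 0.22), and the Src-family kinase gene Lyn by -0.11 (SE 0.19). Without wild-type replicate 1 Syk differed by -0.20 and Lyn by -0.00, and without null replicate 3 by -0.50 and 0.04. The list of other Fc gamma receptor genes held 4, of which 3 were tested. Fcgr1 (-0.61, SE 0.37), Fcgr2b (-0.33, SE 0.41) and Fcgrt, the neonatal Fc receptor (-0.22, SE 0.16), were all lower on average in null. Those 3 were highest of the 6 libraries in wild-type replicate 1 and lowest in null replicate 3, and their median was -0.16 with the first of these left out and -0.08 with the second left out. Without wild-type replicate 1 Fcgr1 differed by -0.34, Fcgr2b by -0.02 and Fcgrt by -0.16. Without null replicate 3 they differed by -0.28, 0.07 and -0.08, so Fcgr2b was then higher in null. The remaining gene, Fcgr4, did not reach the filter, with 8, 12 and 2 reads in null and 10, 6 and 0 reads in wild-type replicates. None of the tested genes of these lists passed in limma or voom, adjusted or at an unadjusted p below 0.05.

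Classical complement genes beyond C1q had small differences in either direction. Of 13 tested genes 9 were lower and 4 higher in null, with a median of -0.11 (-0.03 once null replicate 3 was left out, -0.07 once wild-type replicate 1 was, and 0.01 with both left out), and 0 passed in limma or voom, adjusted or at an unadjusted p below 0.05. The C1r and C1s proteases, which complete the C1 complex, had genes listed as C1ra and C1s that differed by 0.06 (SE 0.12) and -0.04 (SE 0.14), and C2 differed by -0.08 (SE 0.16). C1s differed by 0.03 without wild-type replicate 1 and by 0.09 without null replicate 3. In 12 of the 13 genes null replicate 2 was the highest null library.

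Ligand and chemokine genes had differences in either direction. Of 7 tested genes 3 were lower and 4 higher, with a median of 0.11 (-0.15 without null replicate 3, 0.20 without wild-type replicate 1). Csf1, which encodes the main growth factor of these cells, differed by 0.11 (SE 0.22), Il34, the second CSF1R ligand, by 0.43 (SE 0.39), and Cx3cl1, which encodes fractalkine, by 0.11 (SE 0.24). Without null replicate 3 Csf1 differed by -0.13 and Cx3cl1 by -0.16, and Il34 fell below the filter. Without wild-type replicate 1 the differences were 0.15 for Csf1, 0.32 for Il34 and 0.20 for Cx3cl1. MHC class II genes were lower in 6 of 7 with a median of -0.22 (-0.13 without wild-type replicate 1), among them H2-Aa (-0.50, SE 0.35), H2-Ab1 (-0.15, SE 0.31) and H2-Eb1 (-0.15, SE 0.31). Lysosomal genes were lower in 7 of 12 with a median of -0.03. It was -0.00 without wild-type replicate 1 and 0.02 with both wild-type replicate 1 and null replicate 3 left out. The widely expressed Lamp1, Lamp2 and Ctsb differed by 0.12 (SE 0.12), -0.15 (SE 0.12) and -0.11 (SE 0.10). In these 3 lists 0 genes passed in limma or voom, adjusted or at an unadjusted p below 0.05.

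**Figure D4:**
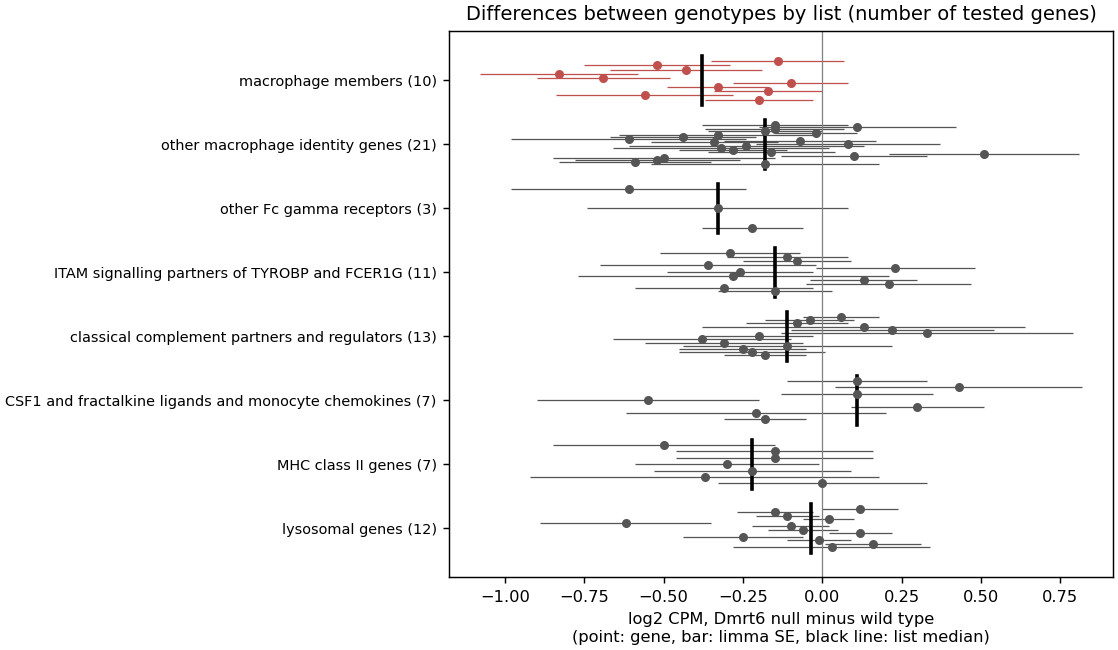
Difference in log2 CPM, Dmrt6 null minus wild type, of each tested gene (points) with its limma SE (bars) for the 10 macrophage genes (red) and 7 related lists (grey), with list medians as black lines. Medians are -0.38 for the 10 genes, -0.18 for other macrophage identity genes and between -0.33 and 0.11 for the rest; no gene shown passed after adjustment.

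Several other blood cell lists also varied between libraries, and their part in the result was not tested. Pan-leukocyte genes summed to 32.8 to 54.3 CPM in null and 32.7 to 67.2 CPM in wild-type libraries, with 5 of 6 lower in null and a median of -0.28 (-0.06 without wild-type replicate 1). In limma and in voom 0 passed after adjustment and 1 at an unadjusted p below 0.05, in limma Cd53 (-0.66, SE 0.26). Ptprc, the CD45 gene, differed by -0.23 (SE 0.29) and Coro1a by -0.33 (SE 0.21). Without wild-type replicate 1 they differed by 0.08 and -0.13, and without null replicate 3 by -0.24 and -0.26. Cd52 was erratic, at 0.29, 4.53 and 1.47 log2 CPM in null and 4.08, 4.17 and 0.66 in wild-type replicates.

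Some neutrophil genes set wild-type replicate 1 apart. Mpo, the granule enzyme myeloperoxidase, had 3, 0 and 2 reads in null replicates 1, 2 and 3 and 194, 5 and 2 reads in wild-type replicates 1, 2 and 3. Elane, neutrophil elastase, had 0, 3 and 2 reads in null and 40, 1 and 0 reads in wild-type replicates. S100a8 had 8, 17 and 2 reads in null and 197, 28 and 0 reads in wild-type replicates, and S100a9 had 4, 30 and 4 reads in null and 254, 74 and 6 reads in wild-type replicates. Csf3r, of the same list, did not follow them. It had 19, 20 and 15 reads in null and 17, 16 and 14 reads in wild-type replicates. At 0 reads the level could still be as high as 3 reads, which is 0.109 CPM in null replicate 2. The neutrophil and monocyte list of 7 genes in the table summed to 7.64 to 14.2 CPM in null and 10.8 to 48.8 CPM in wild-type libraries, and 3 of the 7 were at 0 in some library. The monocyte gene Ly6c2 differed by -0.53 (SE 0.40) and Plac8 by -0.49 (SE 0.29), or -0.11 and -0.25 with wild-type replicate 1 left out. Wild-type replicate 1 was also the highest on 9 of the 10 macrophage genes. Whether its levels of these myeloid genes bear on those 10 was not tested. With this library left out, Tyrobp differed by -0.79, Fcer1g by -0.60 and Cd68 by -0.24. The differences of the other macrophage genes of the 10 without it are given above.

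Mast cell and red blood cell genes had another order. The 5 mast cell markers in the table summed to 6.53 to 10.0 CPM in null and 11.9 to 19.9 CPM in wild-type libraries, none was at 0, and wild-type replicate 3 was highest. All 4 tested were lower in null with a median of -0.75, among them the protease genes Cpa3 (-1.07, SE 0.32), Cma1 (-0.61, SE 0.27) and Mcpt4 (-0.89, SE 0.54). In limma and in voom 0 of these passed after adjustment and 2 were below 0.05 by unadjusted p, those in limma being Cpa3 and Tpsb2 (-0.59, SE 0.25). Mast cells also express Fcer1g, as part of the IgE receptor. Tyrobp, like the mast cell sum, had its highest level in wild-type replicate 3. Fcer1g did not, at 3.60 log2 CPM in wild-type replicate 1 and 3.51 in wild-type replicate 3. The part of mast cells in either gene was not tested. Globin and heme genes summed to 702 to 1260 CPM in null and 1480 to 1770 CPM in wild-type libraries, all 5 lower in null, with Hba-a1 at -0.66 (SE 0.21), Hba-a2 at -0.73 (SE 0.22) and Hbb-b1 at -0.66 (SE 0.19), and 0 passed after adjustment and 4 at an unadjusted p below 0.05 in limma and in voom, in limma these 3 and Hbb-b2 (-0.71, SE 0.19). Hba-a1 and Hba-a2 are near-identical copies, so how reads divide between them is uncertain. Null replicate 3 was the lowest library for all 5, for 7 of the 10 macrophage genes and for 34% of tested genes. Without it the median of the 5 was -0.43, against -0.66 with all libraries, and Hba-a1 differed by -0.40, Hba-a2 by -0.46 and Hbb-b1 by -0.43.

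Lymphocyte markers were low. The 9 T and NK cell markers summed to 7.15 to 8.88 CPM in null and 7.89 to 11.1 CPM in wild-type libraries, and the 4 B cell markers to 0.836 to 2.48 CPM in null and 1.89 to 2.47 CPM in wild-type libraries. Of T and NK cell markers 2 were tested, Cd4 (-0.19, SE 0.28), which macrophages of some tissues also express, and Lck (-0.14, SE 0.25). No B cell marker reached the filter.

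Endothelial genes varied among themselves. Pecam1 (-0.34, SE 0.24) and Kdr (-0.28, SE 0.16) had r of 0.91 and 0.88 with the average of the 10 over the 6 libraries, whereas Cdh5 (0.07, SE 0.19) had r of -0.39. High r was not particular to endothelium. In the Leydig, Sertoli, stromal and germ cell lists it ranged from -0.88 for Sohlh1 to 0.95 for the stromal gene Pdgfra. The endothelial list summed to 168 to 201 CPM in null and 194 to 241 CPM in wild-type libraries, with 4 of 8 lower in null. Leaving out wild-type replicate 1 gave -0.14 for Pecam1 and -0.13 for Kdr, and leaving out null replicate 3 gave -0.17 for Cdh5. Leydig genes summed to 440 to 619 CPM in null and 473 to 734 CPM in wild-type libraries, with Star at 0.36 (SE 0.46), Cyp11a1 at -0.19 (SE 0.30) and Cyp17a1 at 0.61 (SE 0.43). The Leydig median of -0.28 was -0.48 once wild-type replicate 1 was left out and -0.18 once null replicate 3 was. Sertoli genes were highest of the 6 libraries in null replicate 3 for 5 of 6, as were 34.5% of tested genes, with Sox9 at 0.49 (SE 0.32), Amh at 0.06 (SE 0.39) and Wt1 at 0.22 (SE 0.21). With that library left out Sox9 differed by 0.08, Amh by -0.35 and Wt1 by -0.01, and the list median was -0.12, against 0.12 with all libraries. Leaving out wild-type replicate 1 gave a Sertoli median of 0.22. Peritubular and stromal genes summed to 1980 to 3000 CPM in null and 2370 to 2470 CPM in wild-type libraries, with Acta2 at -0.06 (SE 0.18), Myh11 at 0.16 (SE 0.23) and Des at -0.09 (SE 0.23). Of the germ cell genes Ddx4 differed by 0.05 (SE 0.09), Dazl by -0.01 (SE 0.08) and the spermatogonial receptor gene Kit by 0.35 (SE 0.13). None of the genes of these 5 lists passed after adjustment in limma or voom, and in limma Tek (-0.52, SE 0.15), Hsd3b1 (-0.38, SE 0.12), Kit and Sohlh1 (0.40, SE 0.14) had an unadjusted p below 0.05. The part of these cell types in the macrophage result was not tested.

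**Figure D5:**
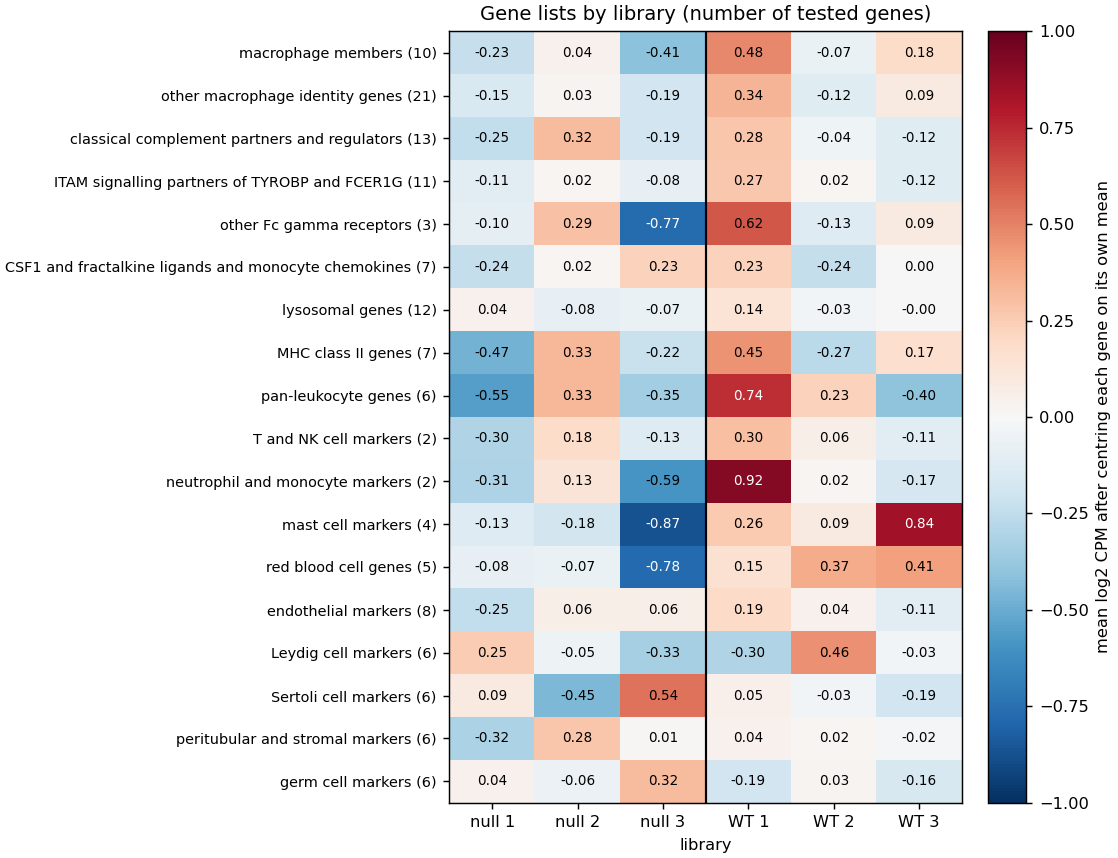
Average log2 CPM of each gene list by library after centring each gene on its own mean (null left of the line, wild type right; red above, blue below), with the number of tested genes in brackets. Wild-type replicate 1 is highest for the macrophage (0.48), other macrophage (0.34) and neutrophil and monocyte (0.92) lists, wild-type replicate 3 for mast cells (0.84), and null replicate 3 for Sertoli cells (0.54).

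The 8 genes whose pattern over the 6 libraries was most like the average of the 10, among 13698 other genes at a mean of at least 2 log2 CPM, were Serpine2 (r = 0.998), Alkbh3, Abca8b, Rad54b, Ctss, Lmo2, Armcx6 and Lect1 (r = 0.985). Ctss, the cysteine protease cathepsin S of antigen-presenting cells, stood at 3.32, 3.84 and 2.93 log2 CPM in null and 4.37, 3.65 and 3.91 in wild-type replicates. Serpine2, which encodes a secreted protease inhibitor, had the same order of libraries as C1qb (rho = 1.00 with the average of the 10) and differed by -0.25. An r of at least 0.9 was reached by 390 of the 13698 genes, or 2.85%, and the likeness is a description only.

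Adult DMRT6 peaks near these genes were then located, a measure that played no part in choosing the set. The list held 14862 peaks with the authors' own score, the lowest being 50.02 and the median 94.7. A peak middle lay within 10 kb of the 5' end for 3 of the 10 genes, or 30%, and for 31.2% of tested genes. The peak nearest to the start of Fcgr3 was at chromosome 1, 172994463 to 172995074 (mm9), with a score of 58.4. Its middle lay 298 bp inside the gene, and no other gene start lay closer to it than 45.7 kb, that of Fcgr4. Fcgr3 also had a peak with a score of at least 100 within 10 kb. Cd68 had one at chromosome 11, 69481169 to 69481390, with a score of 142, whose middle lay 1624 bp upstream and inside the translation factor gene Eif4a1. Cx3cr1 had one at chromosome 9, 119986676 to 119986864, with a score of 113, 9370 bp upstream. The nearest peak was 11.5 kb from Fcer1g, 17.5 kb from Csf1r, 70.6 kb from Tyrobp, 71.3 kb from Mrc1, and 96.9, 104 and 110 kb from C1qb, C1qc and C1qa, all 3 with the same peak at 136345086 to 136345301. With 1 ChIP and 1 input library there is no replicate check on these peaks, and they come from adult testis and not from P8. The differences in null testes were -0.56, -0.33 and -0.17 for Fcgr3, Cd68 and Cx3cr1.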

How the data were processed

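The authors deposited 1 table of log2 CPM for 22744 genes in 6 P8 testis libraries, and 1 list of 14862 peaks with a score each. STAR 2.3.0e, Bowtie2, Picard, edgeR and the build mm9 are named, without roles, by the submitters' processing notes. No source used here states the read counter, the annotation or the use of strand. The deposited peak list is named for removal of duplicates and MACS 1.4. Coordinates are 1-based mm9, and the promoters are RefSeq GRCm38.p6, matched by symbol for 7 of the 10 genes.

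The deposited log2 values stepped evenly within each library, and 100% of them gave whole reads at a tolerance of 1e-06. Depth was 23768316 to 29046494 reads. Counting errors and limits cover counting error only. limma-trend (limma 3.58.1 in R 4.3.3) compared genotypes over the 16634 genes with a mean of at least 0 log2 CPM, adjusted by Benjamini-Hochberg and called below 0.05. Its SE is the one printed. The same fit was also run on simulated counts in which no library was set apart. limma's voom used the recovered reads. The series calls the libraries biological replicates without naming separate animals, so p-values measure only the spread between these samples. Alternatives were the filter, scaling, added CPM, voom, a replicate block, array weights, and leaving out each library.

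The 10 genes and all lists were chosen with earlier results of these data known. Named genes are the 10, the first 3 tested genes of each list in its written order, defining markers near 0, Dmrtb1, and the 8 other genes of highest r with predicted-gene symbols left out; 1 gene that the rule names is not reported here.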

Additional observations from a re-analysis of the deposited data

How the results depend on the processing

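The differences of the 10 genes were recomputed under 15 alternatives. The filters and the replicate block, 3 of these, left every difference as it was by construction; under the other 12, 116 of 120 values kept their direction. Csf1r turned to 0.08 when wild-type replicate 1 was left out. When null replicate 3 was left out too, a choice made after seeing the data, C1qa was 0.05, Csf1r 0.13 and Mrc1 0.04. With 1 library left out, C1qa ranged from -0.34 to -0.01, Csf1r from -0.22 to 0.08 and Mrc1 from -0.35 to -0.06, and the median difference from -0.53 to -0.23. The median was -0.43 with median centring and -0.42 with quantile normalization. Among all tested genes 1 passed the threshold. That count was 3 with no filter, 0 at a mean of at least 2 log2 CPM, 3 with median centring, 2 with quantile normalization, and 0 to 5 with 1 library left out. Array weights gave 136, with 1 of the 10 genes, Tyrobp, among them, but that estimate did not converge and gave null replicate 1 a weight of 19.32, so the call is not used. Same-numbered libraries did not deviate together (r = -0.09, -0.22 and -0.04 across 16634 genes). With 3 libraries a group, a weaker pairing by number could go unseen. A replicate block gave 2 genes past the threshold. Other macrophage identity genes lower in null numbered 7 at a mean of at least 2, where fewer were tested. The range of the average of the 10 between libraries, 0.89, was 0.59 to 0.89 with 1 library left out. The median r with the other 9, 0.86, was 0.79 to 0.91. A peak lay within 1 kb of 1 of the 10 genes and within 50 kb of 5, beside 16% and 64.2% of tested genes. With peaks of a score of at least 100 it lay within 10 kb of 3, beside 16.1%. The cause of these shifts was not tested, and 3 libraries a group limit every comparison.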
